A study of Mus musculus with 14 samples.

Results

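The Toll-like receptor group comprised 10 genes of 24394 named in the deposited table, chosen by symbol: Tlr1, Tlr2, Tlr3, Tlr4, Tlr7, Tlr9, Tlr13, the co-receptor genes Cd14 and Ly96, and the adaptor gene Myd88. All 10 were found, and all 10 passed the filter on low values. They were measured by RNA sequencing of microglia, the macrophages that reside in brain tissue, in C57BL/6 mice of 18 months. In the anti-CD22 group a pump delivered a blocking antibody to CD22, a sialic acid receptor that restrains immune cells, into the cerebrospinal fluid for 1 month. The IgG group received a control antibody in the same way. Each group held 7 libraries, and both groups shared the strain, age, pump implantation, and the use of the hemisphere away from the cannula. Each library came from about 20000 living CD11b+ CD45lo cells isolated by sorting after mechanical homogenization. Whether every library stands for its own animal is not stated in the labels, so p-values here measure only the spread among these libraries, which may be technical.

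Toll-like receptors recognise conserved molecules of microbes and of damaged cells, and in the brain microglia are a main cell type that carries them. TLR1, TLR2 and TLR4 sit at the cell surface, while TLR3, TLR7, TLR9 and TLR13 sense nucleic acids inside endosomes. CD14 hands bacterial lipopolysaccharide to the complex of TLR4 and MD-2, the product of Ly96, and MyD88 passes on the signal of every Toll-like receptor except TLR3.

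No member passed an adjusted p of 0.05 between anti-CD22 and IgG microglia by limma (0 of 10), against 0.00859% of the 11646 genes tested. The 1 gene called among them was the immediate early gene Ier2, with a log2 fold change of -0.87 (SE 0.13, limma adjusted p = 0.0227). At an unadjusted p under 0.05 stood 4 of 10 members, against 12.8% of all genes tested. With a higher mean in anti-CD22 microglia these were Tlr4, Tlr13 and Tlr3 (3 of 10, against 6.8% of genes), and with a lower mean Cd14 (1 of 10, against 5.95%). DESeq2 on recovered reads called 0 of the 9 members to which it gave an adjusted p (all but Tlr9), against 0.524% of the 6679 genes with one (0.255% higher and 0.27% lower). The median log2 fold change was 0.04 over the members and 0.00 over all genes tested, with 6 members above 0 and 4 below. In no member were the libraries of one group all above those of the other (0 of 10), a pattern seen in 0.258% of genes tested (0.137% higher and 0.12% lower).

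Library totals of normalized counts lay between 27357939 and 29197481, and the reads recovered for 13 libraries ranged from 20221836 to 38101421. Microglial markers (12 genes) summed to between 2075927 and 2253510 normalized counts in anti-CD22 libraries. In IgG libraries they summed to between 1974802 and 2352279. Of the 12, 8 had a higher and 4 a lower mean log2 level in anti-CD22 libraries, with 0 called. The smallest p were those of Trem2 (log2 fold change -0.20, limma adjusted p = 0.348) and P2ry13 (0.12, 0.351). Among these markers P2ry12 ranged from 193755 to 255484 normalized counts in anti-CD22 and from 195084 to 243086 in IgG libraries. Another, Tmem119, ranged from 214081 to 284674 normalized counts in anti-CD22 and from 240619 to 308293 in IgG libraries. Neutrophil markers (8 genes, 0 of them at 0 in every library) summed to between 0 and 10133 normalized counts in anti-CD22 libraries, and to between 3.34 and 53327 in IgG libraries, where replicate 1 was the highest. Border macrophage markers (8 genes, 0 at 0 throughout) summed to between 273 and 2507 in anti-CD22 libraries, with replicates 1, 2 and 3 the highest, and to between 102 and 1761 in IgG libraries. Monocyte markers (8 genes, 0 at 0 throughout) reached 2373 in anti-CD22 and 9511 in IgG libraries. Astrocyte markers (6 genes) summed to between 6615 and 8442 in anti-CD22 and between 5906 and 8602 in IgG libraries. Of these, Slc1a3 alone averaged 7492 in anti-CD22 and 7454 in IgG libraries. Oligodendrocyte markers (6 genes) summed to between 4949 and 5660 in anti-CD22 and between 5451 and 6710 in IgG libraries. Dendritic cell markers (7 genes, of which Klk1 was at 0 throughout) summed to between 159 and 382 in anti-CD22 libraries, where 4 of 7 (replicates 1, 2, 3 and 7) lay above every IgG library, and to between 66.2 and 233 in IgG libraries. Of the B cell markers, Ms4a1 and Pax5 were at 0 in every library, while Cd79b had 1118 to 1452 normalized counts in anti-CD22 and 1208 to 1639.6 in IgG libraries, and Cd79a 4.44 to 30.8 in anti-CD22 and 0 to 16.3 in IgG libraries. The part of these cell types in the results was not tested. Long transcripts were relatively more abundant in most anti-CD22 libraries. The rho between transcript length and a library's deviation from the gene means averaged 0.124 ± 0.218 in anti-CD22 and -0.113 ± 0.0978 in IgG libraries (SD, n = 7 each; exact permutation p = 0.0268, two-sided). It was highest in anti-CD22 replicates 1, 2 and 3, at 0.310, 0.286 and 0.327, and this moved with several members described next. The same rho taken with GC content in place of length was lowest in those replicates, at -0.308, -0.403 and -0.360. It lay between -0.022 and 0.257 in the other anti-CD22 libraries and between 0.0093 and 0.278 in IgG libraries. Members were compared with the rho of length only, and the part of GC content in those relations was not tested.

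**Figure D1:**
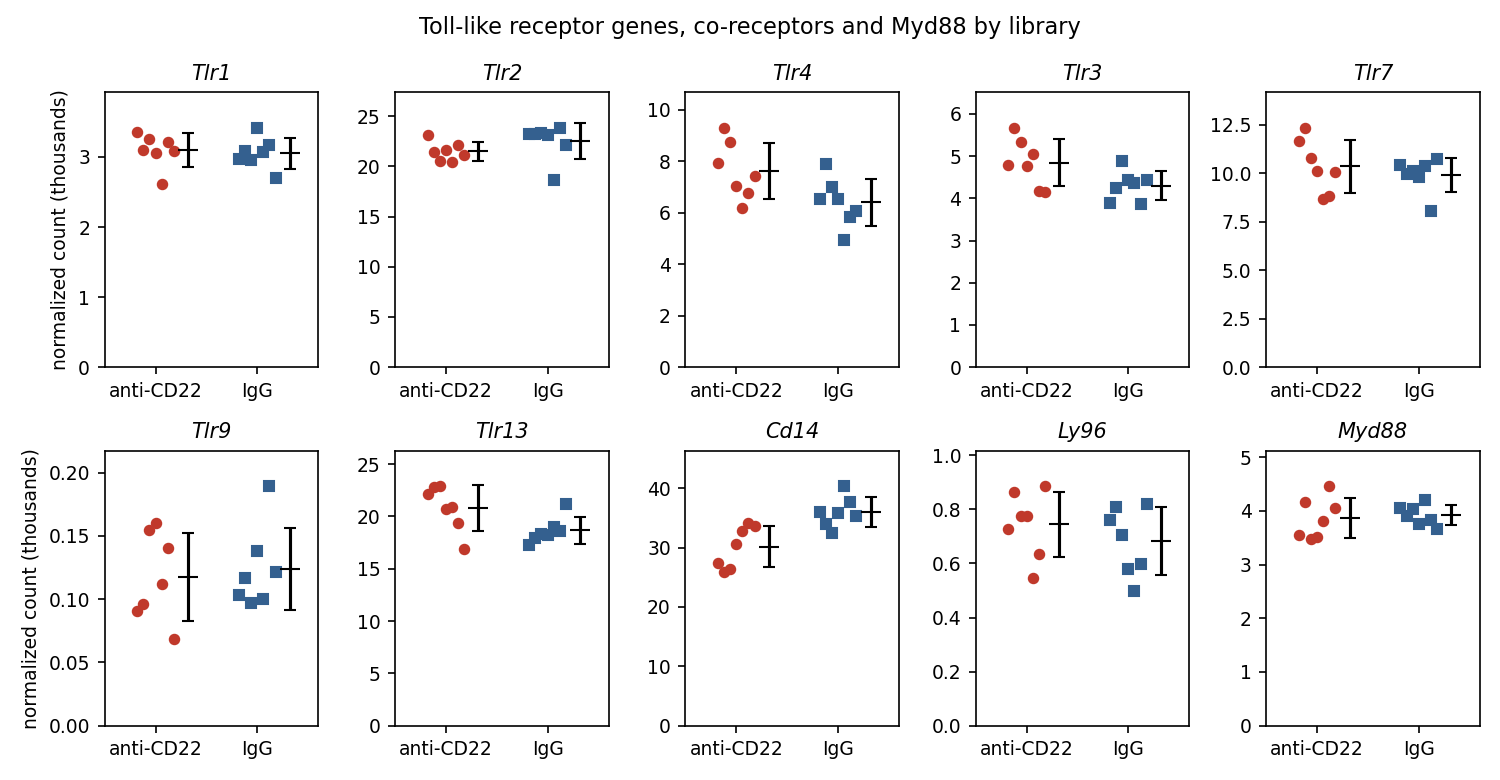
Normalized counts divided by 1000 (linear axis from 0) of each of the 10 genes in the 7 anti-CD22 libraries (red circles) and the 7 IgG libraries (blue squares), with the group mean and SD beside them in black. Libraries run from replicate 1 to 7 from left to right within a group; Cd14 lay between 25952 and 34066 in anti-CD22 and between 32490.3 and 40307 in IgG libraries, and the groups overlapped for every gene.

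Among the surface receptors, Tlr4 had the largest difference between groups. Tlr4 (chromosome 4: 66827584 to 66930284, GRCm38, 4 annotated transcripts), the receptor for lipopolysaccharide, ranged from 6197 through a median of 7414 to 9301 normalized counts in anti-CD22 libraries. In IgG libraries it ranged from 4949.9 through 6526 to 7888. Replicates 1, 2 and 3 of anti-CD22 lay above every IgG library, and 6 of 7 exceeded the IgG median. The mean was 7629.8 ± 1100.4 in anti-CD22 and 6405 ± 926 in IgG libraries (SD, n = 7 each), a log2 fold change of 0.25 (SE 0.097, 95% interval 0.05 to 0.46, limma adjusted p = 0.311). With the trend of transcript length and GC content removed from each library it was 0.12 (adjusted p = 0.597), and without anti-CD22 replicates 1, 2 and 3 it was 0.11 (adjusted p = 0.993). These replicates were the extreme anti-CD22 libraries for Tlr4, and also for Tlr13, Tlr7 and Cd14 below. A smaller difference without them therefore follows from the choice. That fit also has fewer libraries, and 581 of 11646 genes had an unadjusted limma p under 0.05 in it.

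Tlr2 and Tlr1, whose products pair to bind bacterial lipopeptides, were close to equal in the groups. Tlr2 (chromosome 3: 83836272 to 83841767) ranged from 20450.5 through 21438 to 23182 normalized counts in anti-CD22 libraries. In IgG libraries it ranged from 18665.5 through 23189 to 23844. All 7 anti-CD22 values were under the median of the IgG libraries, yet IgG replicate 5 was the lowest of all 14. The log2 fold change was -0.06 (95% interval -0.18 to 0.05, limma adjusted p = 0.636), and -0.11 (adjusted p = 0.417) without IgG replicate 5, where the unadjusted p was 0.0214. Tlr1 (chromosome 5: 64924679 to 64933563) ranged from 2615 through 3099.9 to 3357 in anti-CD22 libraries and from 2699 through 3065 to 3415 in IgG libraries. Its log2 fold change of 0.02 (95% interval -0.12 to 0.16, adjusted p = 0.922) changed sign with the trend removed, to -0.00. Both genes had small spreads, since the SD of log2 levels within groups was 0.10 for Tlr2 and 0.11 for Tlr1, and 3.93% and 7.08% of tested genes had a smaller one (median of all tested genes 0.25).

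Of the endosomal receptors, Tlr13 and Tlr3 had higher means in anti-CD22 microglia, while Tlr7 and Tlr9 lay near the IgG level. Tlr13 (chromosome X: 106143204 to 106160493), a receptor for bacterial ribosomal RNA that mice have and humans lack, ranged from 16846 through 20874.6 to 22869.6 normalized counts in anti-CD22 libraries. In IgG libraries it ranged from 17231 through 18342 to 21211. Replicates 1, 2 and 3 of anti-CD22 stood above every IgG library, and replicate 7 below all of them. The mean was 20803 ± 2165 in anti-CD22 and 18656 ± 1254 in IgG libraries (SD, n = 7 each), a log2 fold change of 0.15 (SE 0.065, 95% interval 0.02 to 0.29, limma adjusted p = 0.349). It was 0.20 (adjusted p = 0.0964) without anti-CD22 replicate 7, 0.07 (adjusted p = 0.740) with the trend removed, and 0.06 (adjusted p = 0.996) without anti-CD22 replicates 1, 2 and 3.

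Tlr3 (chromosome 8: 45395665 to 45411080, 9 annotated transcripts), the receptor for double-stranded RNA, ranged from 4163 through 4790.1 to 5670.4 normalized counts in anti-CD22 libraries. In IgG libraries it ranged from 3873 through 4370.3 to 4893. Here 3 anti-CD22 libraries lay above every IgG library, and 2 IgG libraries lay below every anti-CD22 library. The log2 fold change was 0.17 (SE 0.075, 95% interval 0.01 to 0.32, limma adjusted p = 0.371), 0.03 (adjusted p = 0.927) with the trend removed, and 0.08 (adjusted p = 0.995) without anti-CD22 replicates 1, 2 and 3.

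Tlr7 (chromosome X: 167304929 to 167330558), the receptor for single-stranded RNA, ranged from 8682 through 10108 to 12334 normalized counts in anti-CD22 libraries, against 8071 through 10103 to 10723 in IgG libraries. The medians were alike, and 3 anti-CD22 libraries exceeded every IgG library. Its log2 fold change was 0.06 (95% interval -0.11 to 0.22, limma adjusted p = 0.794), with the opposite sign once the trend was removed (-0.05) or without anti-CD22 replicates 1, 2 and 3 (-0.07). Tlr9 (chromosome 9: 106222598 to 106226883), the receptor for unmethylated CpG DNA, was the rarest member, ranging from 68.8 through 112 to 160.3 normalized counts in anti-CD22 and from 96.7 through 116 to 189 in IgG libraries. Its log2 fold change of -0.09 had a 95% interval from -0.56 to 0.38 (adjusted p = 0.892), which is the widest interval of the members. Both Tlr7 and Tlr13 are on the X chromosome. The Y-linked gene Ddx3y had 1115 to 1529 normalized counts in anti-CD22 and 1060.1 to 1509.8 in IgG libraries, and Xist at most 1.83 in anti-CD22 and 16.7 in IgG libraries.

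RefSeq promoter windows (GRCm38.p6, 250 bases before to 50 after the annotated start) were available for 6 members: Tlr1, Tlr2, Tlr3, Tlr9, Tlr13 and Myd88. The windows of Tlr13 and Tlr3, the endosomal receptors with the larger differences between groups, and of Tlr9, the rarest member, are shown 5′ to 3′ in the direction of transcription. Capitals mark matches, on either strand, to GAGGAA (the core bound by PU.1, a transcription factor of the ETS family that macrophages need) or to TGANTCA (the AP-1 site).
Tlr13, chrX:106143025-106143324, plus strand: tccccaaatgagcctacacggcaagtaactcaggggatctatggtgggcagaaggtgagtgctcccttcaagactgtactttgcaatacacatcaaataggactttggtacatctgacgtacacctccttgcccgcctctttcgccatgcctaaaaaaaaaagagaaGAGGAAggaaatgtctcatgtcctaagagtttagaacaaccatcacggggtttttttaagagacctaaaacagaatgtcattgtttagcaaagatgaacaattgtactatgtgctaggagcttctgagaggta
Tlr3, chr8:45410331-45410630, minus strand: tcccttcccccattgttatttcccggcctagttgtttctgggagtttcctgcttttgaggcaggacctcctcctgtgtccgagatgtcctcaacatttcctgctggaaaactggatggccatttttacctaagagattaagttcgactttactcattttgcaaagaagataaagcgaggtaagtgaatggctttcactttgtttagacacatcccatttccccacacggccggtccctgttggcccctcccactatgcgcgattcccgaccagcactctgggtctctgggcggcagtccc
Tlr9, chr9:106222348-106222647, plus strand: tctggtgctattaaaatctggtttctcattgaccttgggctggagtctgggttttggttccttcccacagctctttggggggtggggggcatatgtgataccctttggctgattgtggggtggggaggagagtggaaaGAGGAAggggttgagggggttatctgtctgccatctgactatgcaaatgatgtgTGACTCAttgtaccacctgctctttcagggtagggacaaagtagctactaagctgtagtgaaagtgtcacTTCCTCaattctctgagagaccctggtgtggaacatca
The Tlr13 window held 1 match to GAGGAA, the Tlr9 window 2 matches to GAGGAA and 1 to TGANTCA, and the Tlr3 window 0 of either. No match overlapped another in these windows. Across 32851 windows of the same length, 28.3% held GAGGAA and 7.81% held TGANTCA. A match is a stretch of letters and not a measured binding site.

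Cd14 had the smallest p of the members. It ranged from 25952 through a median of 30581.5 to 34066 normalized counts in anti-CD22 libraries. In IgG libraries it ranged from 32490.3 through 35885 to 40307. All 7 anti-CD22 values were under the median of the IgG libraries, 4 of them below every IgG library, and 5 IgG libraries lay above every anti-CD22 library. The difference of mean log2 levels was a log2 fold change of -0.26 (SE 0.067, 95% interval -0.40 to -0.12, limma adjusted p = 0.195). On the linear scale this is a ratio of 0.835 between the geometric means of anti-CD22 and IgG libraries. By unadjusted p it ranked 63 of 11646. Leaving out each library in turn gave log2 fold changes from -0.29 to -0.23, with adjusted p from 0.0658 to 0.402. The lowest anti-CD22 libraries were replicates 1, 2 and 3. Without them the log2 fold change was -0.13 (limma unadjusted p = 0.0371, adjusted p = 0.972), and a smaller difference follows from leaving out the lowest libraries. With the trend removed the log2 fold change was -0.18 (adjusted p = 0.388). Without IgG replicate 1, which had the most neutrophil marker RNA, the log2 fold change was -0.26 (adjusted p = 0.238). Other libraries with such RNA stay in that fit, among them IgG replicate 7 (14473) and anti-CD22 replicate 4 (10133). The part of neutrophil RNA in the Cd14 difference was not tested. In bulk samples fewer cells of a type and less RNA per cell cannot be told apart.

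Ly96, whose product MD-2 binds lipopolysaccharide beside TLR4, ranged from 547 through 775 to 885 normalized counts in anti-CD22 libraries and from 499 through 705 to 821 in IgG libraries (chromosome 1: 16688051 to 16709611). Its log2 fold change was 0.13 (95% interval -0.14 to 0.41, limma adjusted p = 0.6997). Myd88 (chromosome 9: 119335934 to 119341411) ranged from 3485 through 3805 to 4458 in anti-CD22 libraries and from 3656 through 3913 to 4198 in IgG libraries. Its log2 fold change was -0.02 (95% interval -0.16 to 0.11, limma adjusted p = 0.899), and 0.03 with the trend removed. Neither gene separated the groups, and Myd88 had a smaller spread within groups (SD of log2 levels 0.11) than Ly96 (0.26).

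**Figure D2:**
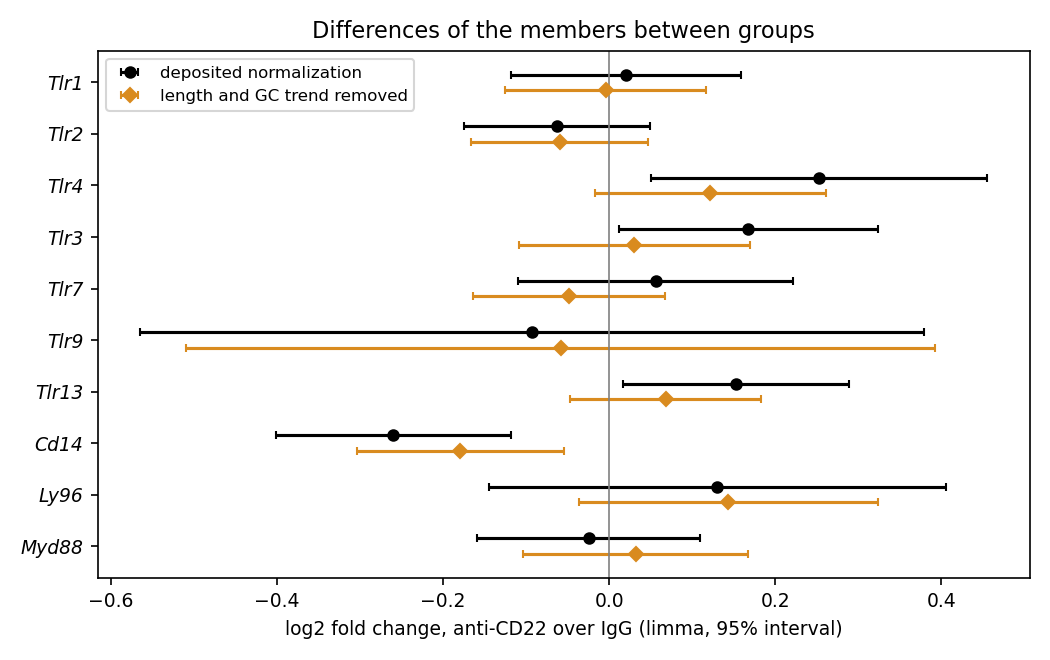
Log2 fold change, anti-CD22 over IgG, of each member with its 95% interval from limma, as deposited (black circles) and with the trend of transcript length and GC content removed from each library (orange diamonds). The interval of Cd14 lies below 0 in both cases, at -0.26 and -0.18, while Tlr4 moves to 0.12 from 0.25, Tlr3 to 0.03 from 0.17 and Tlr13 to 0.07 from 0.15 with the trend removed, and their intervals then include 0.

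How often these members stayed under an unadjusted p of 0.05 was counted over the 14 fits that leave out 1 library each. The members were picked by the fit of all libraries, which shares most libraries with each of these fits. High counts are therefore largely set in advance and are no independent support. How many of all genes had such counts was not determined. An unadjusted p under 0.05 was found in 14 of 14 fits for Cd14 and 14 of 14 for Tlr4, in 9 for Tlr13 and in 8 for Tlr3. With all libraries 4 members were under that p, as were 1485 of all 11646 genes. It was 2 members without anti-CD22 replicate 2 (1094 genes), anti-CD22 replicate 3 (1073 genes), IgG replicate 1 (1472 genes) or IgG replicate 2 (1638 genes), and 5 members without IgG replicate 5 (1296 genes). With the trend removed 1 of 10 members was under it, Cd14, against 9.1% of all genes (4.23% higher and 4.87% lower).

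Levels were compared between genes per kb of the longest annotated transcript. Cd14 was the most abundant member, at 18367 ± 2129.5 normalized counts per kb in anti-CD22 and 21905 ± 1535 in IgG libraries (SD, n = 7 each). Over all 14 libraries it was followed by Tlr2 at 7303 ± 485 per kb and Tlr13 at 4859 ± 501. Next stood Tlr7 at 2600.5 ± 287, Tlr4 at 1721 ± 286 and Myd88 at 1583 ± 117. Ly96 (1071 ± 184), Tlr3 (1039 ± 121) and Tlr1 (1017 ± 73.3) formed a lower group, and Tlr9 was far below, at 34.7 ± 9.33 (SD, n = 14).

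Among the 9 pairs of neighbours in this order, 6 differed in a two-sided exact sign-flip permutation test over the libraries (each adjusted p = 0.000183, from the smallest p the test allows, with the order found in 14 of 14 libraries). Tlr4 and Myd88 were not told apart (log2 difference 0.11, 9 of 14 libraries, exact adjusted p = 0.235). Neither were Ly96 and Tlr3 (0.03, 9 of 14, exact adjusted p = 0.656) nor Tlr3 and Tlr1 (0.03, 6 of 14, exact adjusted p = 0.656). The lower ranks depend on the length used. Per kb of all exons joined, Ly96 stood below Tlr1 and Tlr3 at 699 ± 120, and Tlr4 below Myd88. Per kb of coding sequence, Myd88 stood above Tlr7 at 4382 ± 323 (SD, n = 14 for each). Cd14, Tlr2, Tlr13 and Tlr9 kept ranks 1, 2, 3 and 10 in each case.

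**Figure D3:**
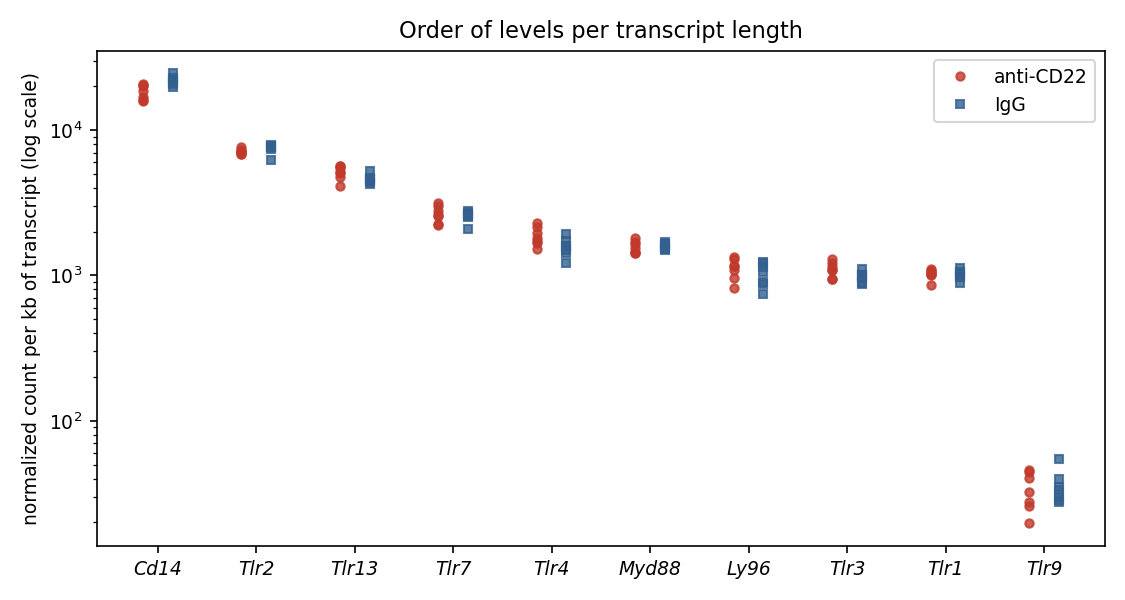
Normalized counts per kb of transcript (log axis) for each member in the 7 anti-CD22 libraries (red circles, left) and the 7 IgG libraries (blue squares, right), ordered by the mean over 14 libraries. Cd14 is at the top with 20136 per kb on average, and Tlr9 at the bottom with 34.7.

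How partners stood to each other within a library was compared as log2 ratios, which do not depend on a library's scaling. For each Tlr4 normalized count there were 2.79 to 5.30 counts of Cd14 in anti-CD22 libraries, against 4.31 to 8.14 in IgG libraries. Anti-CD22 replicates 1, 2 and 3 had a lower ratio than every IgG library. The mean log2 ratio was 1.99 ± 0.364 in anti-CD22 and 2.50 ± 0.304 in IgG libraries (SD, n = 7 each), a difference of -0.51 (SE 0.18; exact permutation p = 0.0140, two-sided; adjusted p = 0.0839 over 6 pairs). With the trend removed the difference was -0.30 (exact permutation p = 0.0216, adjusted p = 0.0647), and without anti-CD22 replicates 1, 2 and 3 it was -0.24 (exact permutation adjusted p = 0.964). For Cd14 over Ly96 the mean log2 ratio was 5.35 ± 0.354 in anti-CD22 and 5.74 ± 0.354 in IgG libraries, a difference of -0.39 (exact permutation p = 0.0629, adjusted p = 0.189). With the trend removed it was -0.32 (exact permutation p = 0.0169, adjusted p = 0.0647), and without anti-CD22 replicates 1, 2 and 3 it was -0.19 (exact permutation adjusted p = 0.964). In both of these ratios those replicates were the lowest anti-CD22 libraries, so a smaller difference without them follows from the choice. The ratio of Ly96 to Tlr4 differed by -0.12 (exact permutation p = 0.227), that of Tlr1 to Tlr2 by 0.08 (0.224), that of Tlr7 to Tlr9 by 0.15 (0.587) and that of Tlr13 to Tlr3 by -0.01 (0.795). The last had the smallest SD of the 6 ratios in each group, at 2.10 ± 0.0843 in anti-CD22 and 2.12 ± 0.126 in IgG libraries (SD, n = 7 each).

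Beside the group difference, members also varied together from library to library. With group means removed, Cd14 and Tlr4 ran opposite to each other (Pearson r = -0.85, Spearman rho = -0.87, n = 14; permutation p = 0.000160 and 0.000110). These were the only values of 45 pairs past an adjusted p of 0.05 (0.00720 for r and 0.00495 for rho). The r was -0.88 within anti-CD22, -0.88 within IgG, -0.87 without the 2 libraries farthest from the median of Tlr4, and -0.65 with the trend removed. The permutation treats the 14 libraries as independent, while Tlr4 was highest in replicate 2 and lowest in replicate 5 of both groups. The r values within the groups may therefore not be independent of each other, and p may be too small. Of 9427 genes with a mean of at least 100 normalized counts, 25 (0.265%) had an r with Cd14 as low as that of Tlr4.

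Tlr4 and Ly96 varied in the same direction (r = 0.73, rho = 0.59; permutation p = 0.00331 and 0.0278; adjusted p = 0.0615 and 0.250). The r was 0.74 within anti-CD22 libraries, 0.72 within IgG, 0.58 without the 2 libraries farthest from the median and 0.70 with the trend removed, and 1.42% of the same genes had an r with Tlr4 as high. The same limit holds here, since Ly96 was highest in replicate 7 and lowest in replicate 5 of both groups. Tlr3 and Tlr13 had r = 0.70 and rho = 0.64 (permutation p = 0.00415 and 0.0168; adjusted p = 0.0615 and 0.189). It was 0.87 within anti-CD22 but 0.31 within IgG libraries, 0.53 without the 2 farthest and 0.54 with the trend removed. Tlr3 and Cd14 had r = -0.71 (permutation adjusted p = 0.0615), but r was 0.26 with the trend removed. For Cd14 and Ly96 r was -0.53 (permutation adjusted p = 0.248). With the trend removed it was -0.76, the strongest r of the 45 pairs in that setting.

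**Figure D4:**
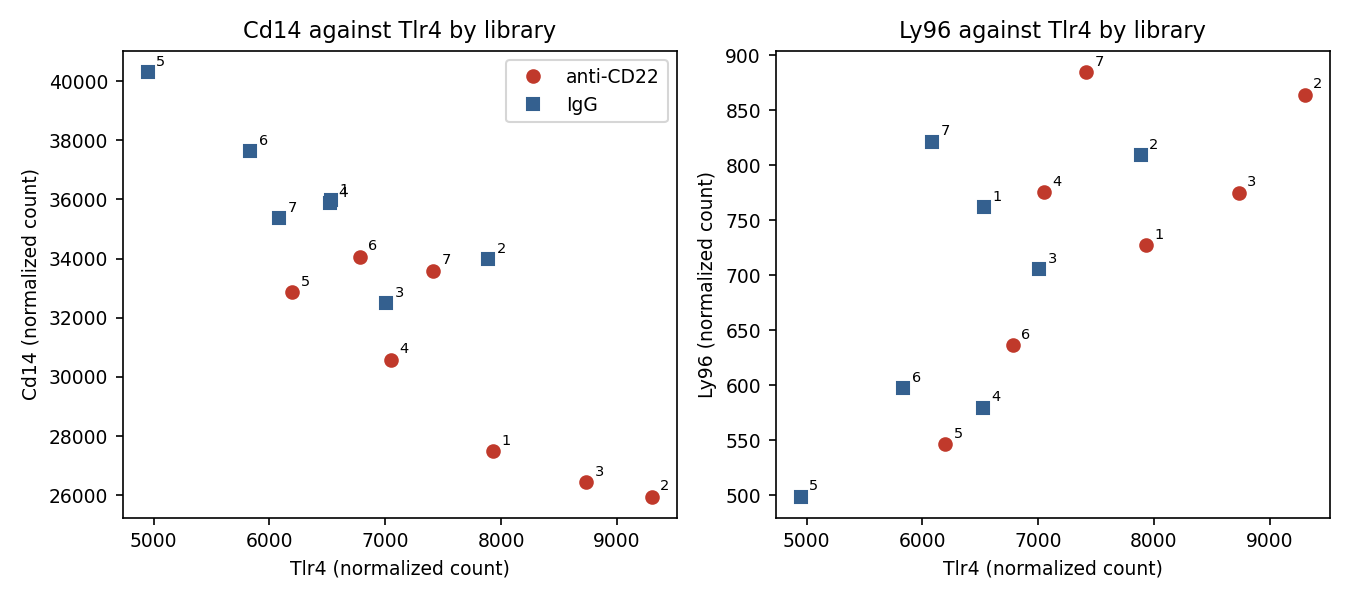
Normalized counts of Cd14 (left) and Ly96 (right) against those of Tlr4 in each library, anti-CD22 as red circles and IgG as blue squares, numbered by replicate. Cd14 declines as Tlr4 grows within both groups (r = -0.88 in each), and Ly96 grows with Tlr4 (r = 0.74 within anti-CD22 and 0.72 within IgG), with r taken over log2 levels.

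Several members also followed the length trend of their library, which was not separated here from that of GC content. With group means removed, Cd14 had r = -0.77 and rho = -0.87 with it (n = 14; permutation p = 0.000620 and 0.000130; adjusted p = 0.00780 and 0.00260 over 20 relations). The r was -0.85 within anti-CD22 libraries, -0.50 within IgG and -0.74 without the 2 farthest libraries. Tlr13 had r = 0.80 and rho = 0.60 (adjusted p = 0.00780 and 0.0979), but r was 0.99 within anti-CD22 and 0.13 within IgG libraries, and 0.55 without the 2 farthest. Tlr3 had r = 0.73 and rho = 0.62 (adjusted p = 0.0174 and 0.0979), with r = 0.84 within anti-CD22 and 0.43 within IgG libraries, and 0.61 without the 2 farthest. Tlr7 (r = 0.59, rho = 0.76) and Tlr4 (r = 0.45, rho = 0.71) passed by rho (adjusted p = 0.0249 and 0.0432) but not by r (0.134 and 0.355). Tlr2 had r = -0.01. Cd14 and Ly96 have transcripts of 1641 and 666 bases. Both lie in the shortest of 4 equal length classes of tested genes, whose median log2 fold change was -0.09. The log2 fold change of Cd14 was -0.26 and that of Ly96 0.13, and Ly96 had r = 0.16 with the length trend. Tlr1, Tlr2 and Myd88 lie in the second class, whose median was -0.03. Tlr3, Tlr4, Tlr7, Tlr9 and Tlr13 lie in the third class (3341 to 4730 bases), whose median was 0.03. No member passed with the mean of the immediate early genes, where the smallest p was that of Myd88 (r = 0.54, permutation p = 0.0445, adjusted p = 0.178).

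**Figure D5:**
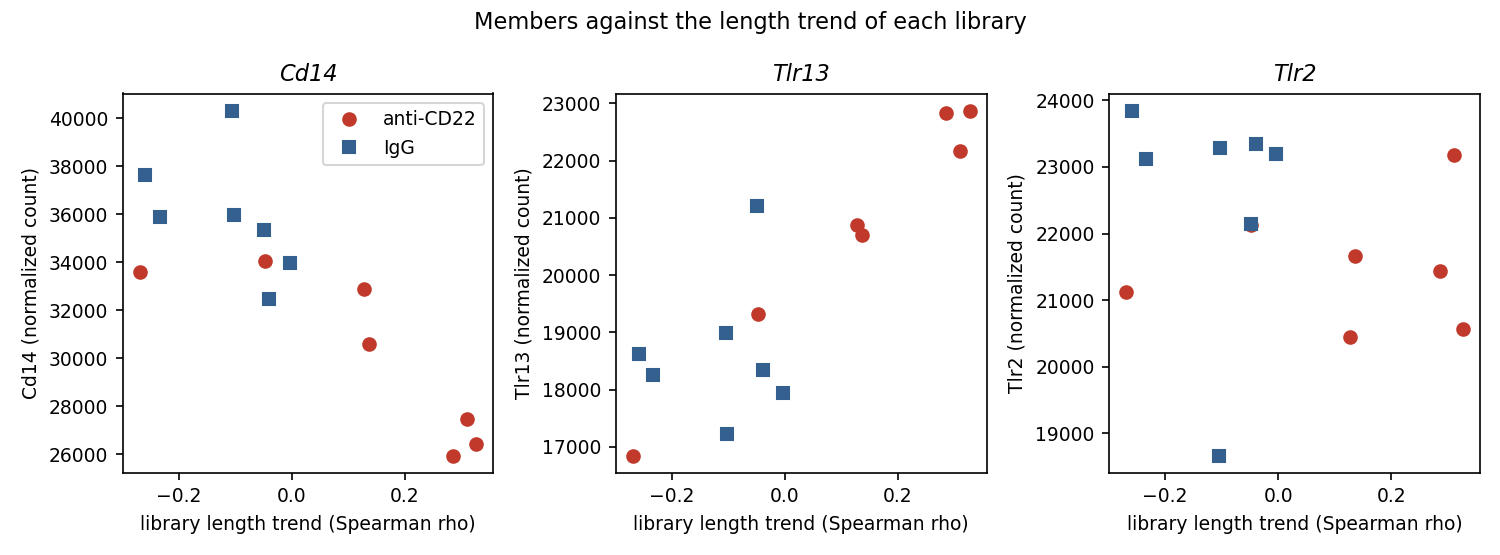
Normalized counts of Cd14, Tlr13 and Tlr2 against the length trend of each library, the Spearman rho between transcript length and the library's deviation from the gene means, for anti-CD22 (red circles) and IgG (blue squares). Cd14 declines and Tlr13 grows along the axis, most clearly in anti-CD22 libraries (r = -0.85 and 0.99), and Tlr2 has r = -0.01 over 14 libraries (r of log2 levels, group means removed in the pooled one).

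The genes most like a member across libraries, among 9428 with a mean of at least 100 normalized counts and with group means removed, were listed for 4 members. For Cd14 they were the complement gene C1qc (r = 0.93), the trafficking GTPase gene Rab1b (0.93) and the splicing factor gene Snrpb (0.92). For Tlr4 they were Naa30 (0.89), Prps1l3 (0.88) and Rbm48 (0.87). For Tlr7 they were Sypl (0.95), Lrrc58 (0.92) and the centriolar satellite gene Pcm1 (0.90). For Tlr13 they were Spty2d1 (0.92), Zmiz1 (0.90) and Mertk, a receptor for apoptotic cells (0.89). An r above 0.7 was common, found for 5.84% of genes with Cd14, 1.99% with Tlr4, 1.98% with Tlr7 and 1.84% with Tlr13.

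The rest of the pathway was read from 8 lists with 93 genes, 85 of them tested. By limma 0 of 85 passed an adjusted p of 0.05, and 12 were at an unadjusted p under 0.05 (3 higher, 9 lower), which is 14.1% against 12.8% of all genes. Their median log2 fold change was -0.05. Of the other receptors 4 of 5 had a higher mean log2 level in anti-CD22 microglia. Tlr6, another partner of TLR2, averaged 2136 ± 233 normalized counts in anti-CD22 and 1887 ± 137 in IgG libraries (SD, n = 7 each; log2 fold change 0.17, limma adjusted p = 0.363). Tlr5, the flagellin receptor, stood at 0.17 on the log2 scale (limma adjusted p = 0.580). Tlr8 averaged 19.0 ± 24.9 normalized counts in anti-CD22 and 29.8 ± 24.1 in IgG libraries (SD, n = 7 each; limma adjusted p = 0.672).

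Of the genes for proteins that fold, move or feed the endosomal receptors, 10 of 12 tested had lower mean log2 levels (none called, median log2 fold change -0.09, and -0.02 with the trend removed). Unc93b1, which carries these receptors to endosomes, averaged 74695 ± 6722 normalized counts in anti-CD22 and 81790 ± 5609.8 in IgG libraries, a log2 fold change of -0.13 (limma adjusted p = 0.363) that was -0.04 with the trend removed. The endosomal nuclease gene Rnaset2b stood at -0.12 (adjusted p = 0.336), and the chaperone gene Cnpy3 at -0.17 (0.442). Accessory proteins included Ly86 at -0.07 (0.552), Cd36 at -0.47 (0.751) and Hmgb1 at -0.03 (0.839), with 2 of 6 higher. Adaptors had 4 of 5 above 0, Ticam2 at 0.10 (0.610), Tirap at 0.08 (0.769) and Sarm1 at -0.17 (0.807). The median log2 fold change of the adaptors was 0.03, and -0.00068 with the trend removed.

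Kinases and ubiquitin ligases were divided evenly, 10 higher and 10 lower. Traf6, the ubiquitin ligase downstream of MyD88, averaged 1164 ± 214 normalized counts in anti-CD22 and 833 ± 110.1 in IgG libraries, a log2 fold change of 0.47 (SE 0.12, limma adjusted p = 0.182) that was 0.34 with the trend removed. Rnf31 stood at -0.21 (0.446) and Peli1 at 0.08 (0.522). Of the transcription factors 7 of 9 were lower. Irf8, which macrophages and microglia need, averaged 26561 ± 3262 normalized counts in anti-CD22 and 31188 ± 1578 in IgG libraries, a log2 fold change of -0.24 (limma adjusted p = 0.212) that was also -0.24 with the trend removed. Irf5 stood at -0.08 (0.485) and Irf3 at -0.16 (0.522), and with the trend removed they stood at 0.0015 and -0.06.

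Inhibitors had 7 of 13 above 0 and induced targets 4 of 15. The smallest p among inhibitors were those of Nrros (-0.29, limma adjusted p = 0.239), Nfkbia (-0.30, 0.244) and Dusp1 (-0.72, 0.324). Among targets they were those of the chemokine genes Ccl3 (-0.40, 0.235) and Ccl4 (-0.37, 0.389) and of Cd83 (-0.17, 0.239). The median log2 fold change of the targets was -0.17, and -0.19 with the trend removed. The immediate early list, which shares Dusp1 and Nfkbiz with these lists, had 1 of 21 tested genes called by limma, Ier2, and a median of -0.41. With the trend removed the median was -0.24, and Ier2 stood at -0.72 (limma adjusted p = 0.219). Its next smallest p were those of Jun (-0.63, limma adjusted p = 0.0890) and Myc (-0.64, 0.144).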

How the data were processed

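RNA of sorted microglia was sequenced in 7 anti-CD22 and 7 IgG libraries with paired reads of 100 bp. The submitters' processing notes name bcl2fastq, STAR, DESeq2 and the build mm10, and per the series' design text STAR did the alignment, SummarizedExperiment made the count matrix and DESeq2 was used for differential expression. Versions, annotation and read filters are not given in the sources used. The deposited values are a signal, named as normalized counts by the authors, and their steps are those of counts divided by 1 factor per library. The table has 24421 entries, of which 27 with names turned into dates were left out (at most 0.149% of a library).

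Groups were compared with limma after taking log2(normalized count + 1), for 11646 genes with a mean of at least 10, with a mean-variance trend, two-sided, with Benjamini-Hochberg adjustment over all genes tested. Every adjusted p of a gene comes from that fit unless another setting is named beside it. The SE of log2 fold changes had a median of 0.13. Values of all 14 libraries were whole multiples of 1 step per library (100% of values, tolerance 0.1 reads). For anti-CD22 replicate 3 the step was 1.01, too close to 1 for whole reads to be claimed, so it stayed out of the tests on reads. Recovered reads of the other 13 libraries were tested with edgeR, which called 0 genes (1027 at an unadjusted p under 0.05), and DESeq2, which called 35. Intervals on reads without molecular identifiers would cover counting error only, and none are given.

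Lengths, GC content and coordinates came from GENCODE vM21 (GRCm38, the assembly of mm10), known for 96.4% of tested genes and for all members. Length and GC trends were fitted per library by natural splines (4 degrees of freedom) and subtracted. Correlations used 100000 resamples. The rule for named genes took all members, up to 3 genes of each pathway list by smallest p, and the 3 genes most like Cd14, Tlr4, Tlr7 and Tlr13. The members, lists, partner pairs and tests were chosen with earlier results of these data known. The pipeline was tested on simulated counts. Tools were R 4.3.3, limma 3.58.1, edgeR 4.0.16, DESeq2 1.42.0, Python 3.11.15, pandas 2.3.3, scipy 1.17.1 and matplotlib 3.10.9.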

Additional observations from a re-analysis of the deposited data

Results flagged for a closer look

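In 32 sets of 7 libraries (10 members and 6 partner ratios in each group), 3 had a library that stood apart from the others by more than Dixon's critical value, and chance flags about 5% of sets. Tlr1 was at 2615 normalized counts in anti-CD22 replicate 5, where the nearest other anti-CD22 library was at 3054. Tlr2 was at 18665.5 in IgG replicate 5, where the nearest IgG library was at 22149. Tlr7 was at 8071 in IgG replicate 6, where the nearest IgG library was at 9789.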

How the results depend on the processing

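No member was called under any of the 30 other settings (Tlr9 has no adjusted p with DESeq2), and the median log2 fold change of the members ranged from -0.01 (without anti-CD22 replicates 1, 2 and 3) to 0.08 (without anti-CD22 replicate 5). Cd14, Tlr4, Tlr13, Tlr3, Ly96 and Tlr2 kept their direction in every setting, and no adjusted p was under 0.0658. The count of genes called, 1, was 0 without a mean-variance trend, with the length and GC trend removed, or without anti-CD22 replicates 1, 2 and 3. On recovered reads, which also leave out anti-CD22 replicate 3, it was 0 with edgeR and 35 with DESeq2, and limma without that replicate called 0. It was 8 with array weights, 4 at a threshold of 0.10, and from 0 to 43 with 1 library left out, the 43 without anti-CD22 replicate 7.

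Small differences changed sign. Tlr1 was at -0.0041 with the trend removed, with or without the block, and at -0.030 without anti-CD22 replicates 1, 2 and 3, and it ranged from -0.0085 to 0.061 with 1 library left out. Tlr7 was at -0.048 and -0.073 in the same settings. Myd88 was at 0.032 with the trend removed, with or without the block, 0.0063 with edgeR, 0.0031 with DESeq2 and 0.011 without anti-CD22 replicates 1, 2 and 3. Tlr9 ranged from -0.18 to 0.025 with 1 library left out. Of the ratios, Ly96 over Tlr4 was at 0.022 and Tlr13 over Tlr3 at 0.038 with the trend removed, and Tlr7 over Tlr9 at -0.0038 without anti-CD22 replicates 1, 2 and 3. With 1 library left out, Cd14 over Tlr4 ranged from -0.58 to -0.42 (adjusted p from 0.0420 to 0.185), Cd14 over Ly96 from -0.48 to -0.29, Tlr7 over Tlr9 from -0.0071 to 0.24 and Tlr13 over Tlr3 from -0.050 to 0.0099. Cd14 over Tlr4 passed without anti-CD22 replicate 5 (-0.58, exact adjusted p = 0.0420) and without IgG replicate 2 (-0.58, 0.0455). The number of neighbours told apart in the order of levels was 8 per kb of joined exons and 9 per kb of coding sequence, against 6. The cause of these changes was not tested.

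Libraries share replicate numbers between groups, but over all genes tested same-numbered libraries did not deviate together (r from -0.15 to 0.16). Since 0 of 7 anti-CD22 libraries correlated best with their own number, the numbers were not taken as pairs. Single members can differ from this, as Tlr4 was highest in replicate 2 and lowest in replicate 5 of both groups. With a replicate block the SE of its log2 fold change was 0.049, against 0.097 without (limma adjusted p = 0.0837 with the block). That of Cd14 was 0.048 against 0.067 (0.0763), while Tlr1, Tlr13 and Myd88 had a larger SE with the block. Whether same-numbered libraries were handled together was not tested. A replicate block called 2 genes, or 1 with the trend removed as well. With the block the ratios kept their values, -0.51 for Cd14 over Tlr4 and -0.39 for Cd14 over Ly96, and both passed (exact adjusted p = 0.0469, sign-flip permutation). Tlr9 had the fewest counts of the members, 118 on average in anti-CD22 and 124 in IgG libraries, and the largest spread within groups; the part of depth in it was not tested.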

Other observations

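Tlr12 and Tlr11, receptors for profilin of protozoan parasites in mice, were outside the rule for named genes and are given after their values were seen. Tlr12 averaged 5162 ± 542 normalized counts in anti-CD22 and 5032 ± 388 in IgG libraries, and Tlr11 averaged 35.4 ± 7.03 in anti-CD22 and 39.5 ± 21.8 in IgG libraries (SD, n = 7 each). The log2 fold changes were 0.03 (limma adjusted p = 0.872) and 0.18 (limma adjusted p = 0.905).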
